A study of Mus musculus with 2 samples.

Results

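The 5 genes described here are members of the bone morphogenetic protein (BMP) pathway in a culture of mouse embryonic stem cells: Bmp4, Smad6, Id1, Id2 and Id3. They were taken by gene symbol from the 32285 genes of the deposited matrices, and each symbol matched 1 row. The study pooled embryonic stem cell lines of the C3H/HeSn-Paf/J strain, of XX, XO and XY origin with 3 lines each, and captured single cells of the pool in droplets at 2 times. The time 1 library is the initial time point at an early passage, and the time 2 library was taken 10 passages later. All cells were grown on gelatin and irradiated mouse embryonic fibroblasts (feeders) in medium with fetal bovine serum and leukaemia inhibitory factor (LIF), so serum factors and feeders were present at both times. Each time point had 1 library without replicates and the cells are not assigned to lines. No test between time points was therefore made, and the 95% intervals below are exact Poisson or Clopper-Pearson intervals that cover counting error only.

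BMP ligands bind pairs of type I and type II receptor kinases, which phosphorylate Smad1, Smad5 and Smad9. These enter the nucleus with Smad4 and switch on target genes, among which the Id genes are the classic ones. Id proteins resemble basic helix-loop-helix factors but lack the basic region that holds DNA. They bind E proteins such as Tcf3, Tcf4 and Tcf12 and keep them from acting. Smad6 is an inhibitory Smad that is itself induced by BMP and dampens the signal at the receptor. In mouse embryonic stem cells, BMP from serum or added as a recombinant ligand is known to act with LIF to hold cells in self-renewal, in part through Id genes. None of this was measured here, where only RNA was counted.

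The members lie on different chromosomes of GRCm38: Bmp4 at chr14:46383520-46390669, Smad6 at chr9:63953076-64022059, Id1 at chr2:152736251-152737410, Id2 at chr12:25093799-25097140 and Id3 at chr4:136143497-136145755. All are protein-coding. Id2 and Smad6 are shown by sequence as the members whose start windows held a match to a motif searched for. In the pluripotent cells compared below, both were also lower at time 2 and higher with more X-linked RNA. A link between these levels and the motifs was not tested. RefSeq start windows of GRCm38.p6 (250 bases before to 50 bases after the start) matched 4 of the 5 members. Both strands were searched for GGCGCC, a GC-rich motif bound by BMP Smads, and for GTCTAGAC, the palindrome of the Smad-binding element. The motifs do not overlap each other. The first sequence lies before the RefSeq start of Id2, at chr12:25096254-25096342 on the minus strand, in the first intron of a longer GENCODE transcript. The second is the site at the start of Smad6, chr9:64022045-64022074 on the minus strand. Capitals mark the motif, and both read 5′ to 3′.
Id2: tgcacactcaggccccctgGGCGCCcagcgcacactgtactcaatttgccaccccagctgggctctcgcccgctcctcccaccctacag
Smad6: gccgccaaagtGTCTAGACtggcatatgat
GGCGCC began 231 bases before the start of Id2 and was held by 11.9% of 32851 windows of the same length. GTCTAGAC began 4 bases before the start of Smad6 and was held by 0.213% of them. The window of Id2 had no GTCTAGAC and that of Smad6 no GGCGCC, and neither motif was in the windows of Bmp4 or Id3. These are matches of letters, not measured binding.

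After filtering, 23196 cells remained at time 1 and 25522 at time 2, with a median of 44395 and 50431 unique molecular identifiers (UMIs, 1 per captured RNA molecule). The libraries shared 2155 barcodes, of which 159 were cells in both. Cells of both libraries formed 14 clusters, built without the 5 members and without a list of 52 other BMP pathway genes, and named here by their leading gene. Levels are CPM, the usual scaling of the UMIs of a gene by all UMIs of a group of cells. Pluripotent stem cell-like cells, the main population of the comparisons, made up 39.5% of the cells at time 1 (9170) and 78.5% at time 2 (20033). Different clusters held most of them: the Rhox9-led cluster at time 1 (7830 cells), and the 1700097N02Rik-led (9768) and Cpne5-led (7222) clusters at time 2. The Calcoco2-led cluster had 1130 and 2122 cells. With 1 library per time point, a cluster mostly of 1 library may be that library and not a state. All 12 pluripotency markers, from which the class was named, were detected in it in both libraries, with summed levels of 10733 and 7161 CPM. The 8 fibroblast markers summed to 95.7 and 141 CPM. Single genes made up most of these sums: the pluripotency marker Dppa5a held 8302 and 4482 CPM, and the fibroblast marker Fn1 held 90.0 and 136 CPM.

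Bmp4, the ligand, had its highest levels in the fibroblast-like cells, the feeders, which formed the Mgp-led cluster. Its level there at time 1 was 25.2 CPM (23.3 to 27.2), and the time 2 level was 25.4 CPM (24.1 to 26.8). The time 1 level rested on few cells: 37 feeders held 89.5% of its UMIs, and feeders without a Nanog UMI stood at 10.3 CPM (8.29 to 12.7), under the levels of 3 other clusters of that library. Among the 23 sums of a cluster and a library with at least 50 cells, the next level was 21.7 CPM in the small Cpne5-led cluster of time 1. The lowest was 1.85 CPM in the Lama1-led, endoderm-like cells of time 2. Primed epiblast-like cells (Pou3f1-led), which resemble the epiblast after implantation, were near the bottom with 3.06 and 3.47 CPM, below every pluripotent stem cell-like sum. The unnamed Apela-led cluster stood at 14.7 CPM (11.9 to 17.97) at time 1, the fourth highest level, and at 2.53 CPM at time 2, below the primed epiblast-like cells. Of the 22 pairs of neighbours in this order, 19 had overlapping intervals. The 3 gaps lay below the Cpne5-led cluster at each time and below the primed epiblast-like cells of time 1.

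Smad6, the inhibitory Smad, had its highest levels in the endothelial-like, Ramp2-led cells. The time 1 level was 15.8 CPM (12.3 to 19.9), and the time 2 level was 24.2 CPM (21.5 to 27.1). Every other sum was at or below 6.37 CPM, the level of the Calcoco2-led cluster at time 1. In the Lama1-led cells the level was 0.169 CPM, which is 1 UMI. Neighbours overlapped in 20 of 22 pairs. Endothelial-like cells were few and held 1.64% of the Smad6 UMIs at time 1 and 8.56% at time 2. Pluripotent stem cell-like cells held 57.2% and 70.0%.

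For Id1, 8 of 22 neighbouring pairs had overlapping intervals, which cover counting error only and narrow with the number of UMIs. Mesendoderm-like cells (Lhx1-led), named from primitive streak genes such as T, Mixl1 and Eomes, had the highest level at time 2. They held 247 CPM (237 to 257) in the time 1 library and 509 CPM (495 to 522) in that of time 2. Endothelial-like cells held 249 and 311 CPM and the feeders 153 and 264 CPM. Primed epiblast-like cells held 101 and 245 CPM, and the Apela-led cluster 142 and 261 CPM. The 7 pluripotent stem cell-like sums were the 7 lowest, and ran from 14.03 CPM in the Rhox9-led cluster at time 1 to 42.6 CPM in the 1700097N02Rik-led cluster at time 2. The lowest and highest sums of Id1 thus differed 36.3-fold.

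Id2 followed another order. It was highest in the macrophage-like, Lyz2-led cells, a group of 55 cells at time 1, with 419 CPM (392 to 448). The next 3 sums were pluripotent stem cell-like: 167 CPM in the Rhox9-led cluster at time 2, 123 CPM in the Calcoco2-led cluster at time 1 and 117 CPM in the Rhox9-led cluster at time 1. The mesendoderm-like cells held only 24.9 and 42.1 CPM of Id2. Id3 followed the order of Id1 more than that of Id2. Its highest sums were mesendoderm-like (446 and 523 CPM), fibroblast-like (415 and 488 CPM), endothelial-like (350 and 447 CPM) and macrophage-like (355 CPM), and its lowest were the Lama1-led cells (34.1 CPM) and the 1700097N02Rik-led cluster (83.1 CPM).

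**Figure D1:**
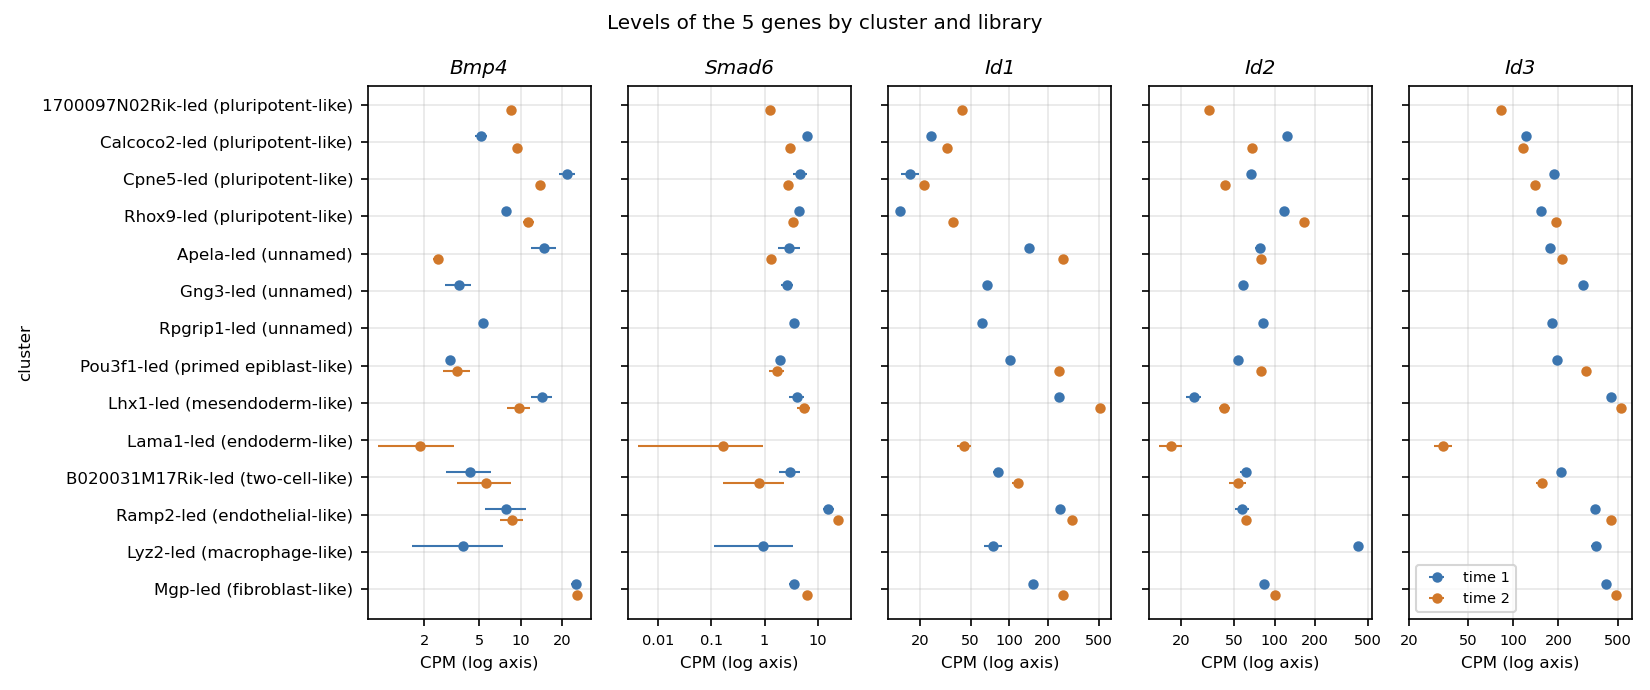
Levels of the 5 members (CPM, log axis, 1 panel per gene) in each cluster of at least 50 cells, with time 1 in blue and time 2 in orange; bars are exact Poisson 95% intervals. Bmp4 is highest in fibroblast-like cells (25.2 and 25.4 CPM), Smad6 in endothelial-like cells, Id1 and Id3 in mesendoderm-like cells and Id2 in macrophage-like cells.

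Across the 23 sums, Id1 and Id3 went together, with a Pearson correlation of 0.67 (Spearman 0.79) on log2(CPM + 1). Bmp4 and Id1 did not, at 0.01 (Spearman 0.05). Bmp4 and Id3 stood at 0.37, Id1 and Id2 at -0.14, and Smad6 and Id3 at 0.55. The sums share 2 libraries and differ in cell number, so these are descriptions. In primed epiblast-like cells the ligand and the target lay far apart. Against pluripotent stem cell-like cells of the same library, Id1 was 6.45-fold (6.29 to 6.61) and 7.19-fold (6.99 to 7.39) higher there, while the Bmp4 ratio was 0.398 (0.372 to 0.425) and 0.330 (0.261 to 0.412).

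Between time points, the members differed in different directions in pluripotent stem cell-like cells. Bmp4 went from 7.70 CPM (7.46 to 7.94) to 10.5 CPM (10.3 to 10.7), a ratio of 1.37. Smad6 went from 4.76 CPM (4.57 to 4.95) to 2.04 CPM (1.961 to 2.13), a ratio of 0.430. The intervals of the 2 times did not overlap for either gene. The Smad6 levels rest on 2439 and 2388 UMIs. Id1 was 15.6 CPM (15.3 to 16.0) and then 34.1 CPM (33.8 to 34.5), a ratio of 2.18. Id2 was 116 CPM (115 to 117) and then 45.0 CPM (44.6 to 45.3), a ratio of 0.386. Id3 was 149.5 CPM (148 to 151) and then 110.4 CPM (109.7 to 111), a ratio of 0.738. So Id1 was higher after passaging while Id2 and Id3, its close relatives, were lower.

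On the log2(CPM + 1) scale, which understates changes of low genes, the differences were 0.40 for Bmp4, -0.92 for Smad6, 1.08 for Id1, -1.35 for Id2 and -0.43 for Id3. A gene was counted as past 2-fold if this difference was at least 1 in size and the gene had at least 10 CPM at either time. Among the members, 4 met the level and 2 were past 2-fold, Id1 higher and Id2 lower. Bmp4 met the level at time 2 alone. Id1 lay close to the limit, and its difference was below it with doublets kept (0.96), at Leiden resolution 1.0 (0.97), with at least 5000 UMIs per cell (0.87) and with a pseudocount of 5 CPM (0.92). Neither gene was past 2-fold over all filtered cells (0.52 for Id1 and -0.72 for Id2) or with primed epiblast-like cells added (-0.42 and -0.96), where Id1 turned direction. The same held in the Calcoco2-led cluster (0.40 and -0.86), cells with a high share of X-linked RNA (0.91 and -0.75) and cells with Y-linked RNA (0.94 and -0.98) taken alone. Id1 alone was past the limit in cells with a low share of X-linked RNA (1.197, with -0.63 for Id2) and in the Rhox9-led cluster (1.32), where Id2 turned direction (0.51). With the Rpgrip1-led cluster added, Id2 alone was (-1.22, with 0.22 for Id1). Of all 7360 genes at this level, 1.01% were 2-fold higher and 2.70% were 2-fold lower, with a median difference of -0.03. Scaling with edgeR's TMM factors in place of total UMIs shifts log2 ratios by 0.15 and turned none of the 5 directions. With a single library at each time, library and passage cannot be told apart.

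Within clusters, Id1 was the member whose direction was the same throughout. It was higher at time 2 in 9 of the 9 clusters with at least 50 cells in both libraries, at ratios of 1.25 to 2.596 (median 1.73) whose intervals all lay above 1. This pattern was picked after its values were seen, and of 5956 genes with at least 10 CPM in each cluster at either time, 19.3% were higher at time 2 in all 9 and 14% were lower in all 9. Near-empty droplets, which carry free RNA, also held more Id1 at time 2, at 90.2 CPM (81.9 to 99.1) against 54.5 CPM (47.3 to 62.4). Both values lay above the pluripotent stem cell-like levels, and the part of free RNA in the Id1 ratios was not tested. Id3 was higher in 6 clusters and lower in 3, with every interval off 1. Id2 was higher in 6 clusters, in 4 with an interval above 1, and lower with an interval below 1 in 2. Bmp4 ran from a ratio of 0.172 in the Apela-led cluster to 1.83 in the Calcoco2-led cluster, and Smad6 from 0.267 to 1.73. For Bmp4 the interval lay above 1 in 2 clusters and below 1 in 3, and for Smad6 in 2 and 5.

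The direction of Bmp4, Id2 and Id3 depended on which pluripotent cells were compared. Within the Rhox9-led cluster, Id2 went from 117 CPM (116 to 118) to 167 CPM (163 to 170), a ratio of 1.42 where the whole population gave 0.386. Id3 went there from 153 to 193 CPM. Within the Calcoco2-led cluster Id2 went from 123 to 67.2 CPM and Id3 from 122 to 117 CPM. Id1 was higher at time 2 in both clusters, at 14.03 against 36.4 CPM in the first and 24.4 against 32.5 CPM in the second. Bmp4 was higher at time 2 in both as well, at ratios of 1.46 and 1.83. In the Cpne5-led cluster, with 162 cells at time 1, Bmp4 went from 21.7 to 13.8 CPM, a ratio of 0.638 (0.556 to 0.736). Adding the primed epiblast-like cells, which were 29.6% of the cells at time 1 and 1.67% at time 2, turned the Id1 difference to -0.42. Adding the unnamed Rpgrip1-led cluster, with 5997 cells at time 1 and 20 at time 2 and 61.3 CPM of Id1, left it at 0.22. Neither addition held the unnamed Apela-led cluster, with 108 cells at time 1 and 3766 at time 2. It had 261 CPM of Id1 at time 2, and 2 primed markers were 2-fold higher in it than in the other clusters. The value of -0.42 may thus leave out primed-like cells of time 2. Over all filtered cells, which include this cluster, the Id1 difference was 0.52.

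The study asks how X dosage bears on the cultures, and Id2 and Smad6 differed between classes of X-linked RNA. Pluripotent stem cell-like cells without a UMI of the Y-linked genes (Uty, Kdm5d, Eif2s3y, Ddx3y) were divided by the ratio of their RNA from 398 X-linked genes to that from autosomal genes. They were called X-high at 1.2 times or more of the median of Y-positive cells (2 or more UMIs of those genes) in the same library. X-high cells were 5089 (55.5% of the class) at time 1 and 3098 (15.5%) at time 2, and X-low cells 2740 and 14368. Id2 stood at 153 CPM in X-high and 55.5 CPM in X-low cells at time 1, a ratio of 2.75 (2.68 to 2.82). At time 2 it stood at 90.6 and 35.5 CPM, a ratio of 2.55 (2.4996 to 2.597). Smad6 gave ratios of 2.09 (1.87 to 2.34) and 1.80 (1.64 to 1.99). Id2 was thus higher in X-high cells in both libraries, and also within the Rhox9-led cluster (ratios 2.88 and 2.10) and the Calcoco2-led cluster (1.59 and 1.54, with only 28 and 66 X-low cells). Smad6 gave 2.11 (1.88 to 2.38) and 1.54 (1.01 to 2.41) within the Rhox9-led cluster, while in the Calcoco2-led cluster both intervals held 1.

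For the other members the X-high ratio lay closer to 1, and on different sides of it in the 2 libraries when clusters were pooled. It was 0.725 and 1.13 for Bmp4, 1.06 and 0.865 for Id1, and 0.864 and 1.22 for Id3. For Bmp4 the different sides did not hold with X-high called at 1.4 times, where the ratio was 0.590 at time 1 and 0.990 (0.939 to 1.04) at time 2. Within the Rhox9-led cluster the Bmp4 ratio was 0.864 at time 1 and 2.51 (1.94 to 3.29) at time 2, and within the Calcoco2-led cluster it was 0.420 and 0.303. Id1 and Id3 lay below 1 at both times within either cluster. In the Rhox9-led cluster Id1 gave 0.907 and 0.660 and Id3 gave 0.907 and 0.870. In the Calcoco2-led cluster Id1 gave 0.903 (0.652 to 1.29) and 0.810, and Id3 gave 0.778 and 0.573. Within each class, Id1 was higher at time 2: from 15.9 to 30.8 CPM in X-high cells, from 15.0 to 35.7 CPM in X-low cells and from 14.3 to 28.3 CPM in Y-positive cells. Id2 was lower in each class, at ratios of 0.594 (0.583 to 0.604) in X-high, 0.640 (0.624 to 0.656) in X-low and 0.4999 (0.477 to 0.524) in Y-positive cells. These are all closer to 1 than the 0.386 of the whole population, where X-high cells were the larger class at time 1 and the smaller one at time 2. The part of that shift in class sizes in the Id2 difference was not tested. Within the Rhox9-led cluster Id2 was not lower in any class beyond counting error, with ratios of 1.32 (1.28 to 1.36) in X-high, 1.81 (1.70 to 1.93) in X-low and 0.997 (0.896 to 1.11) in Y-positive cells.

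**Figure D2:**
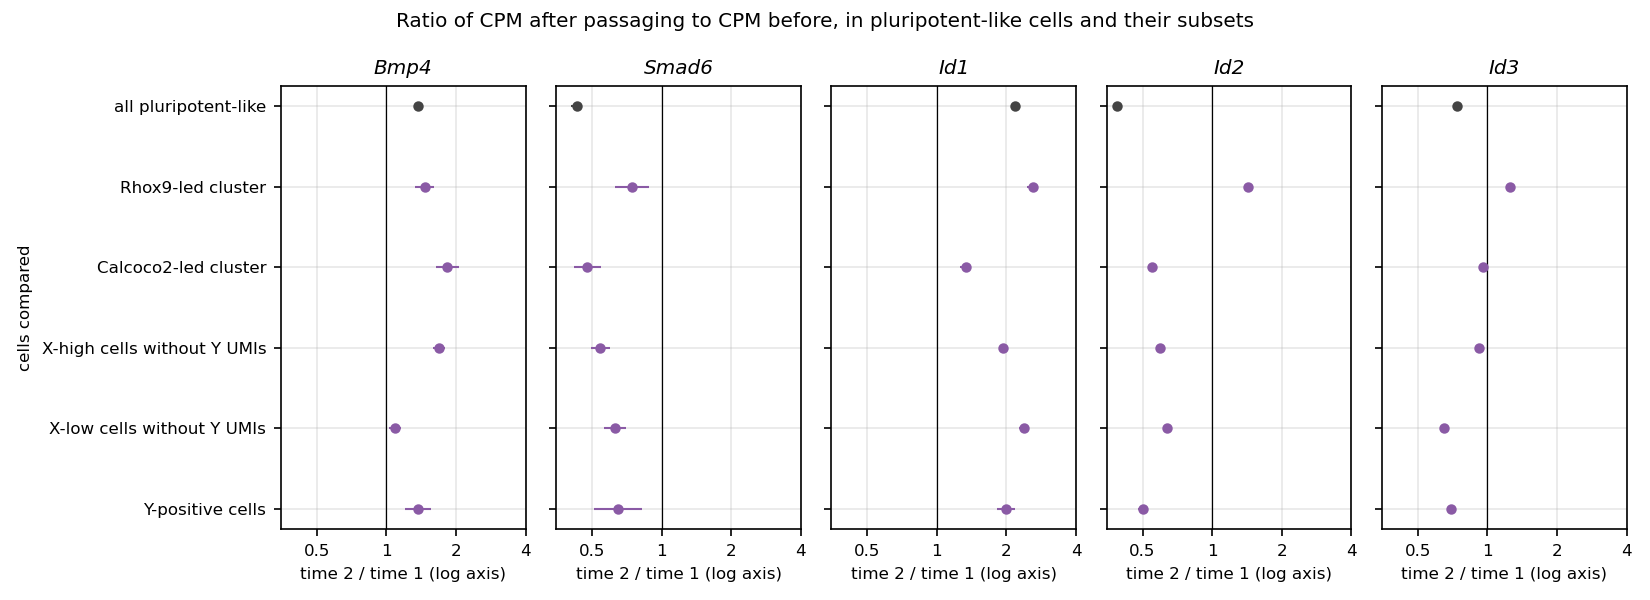
Ratio of CPM at time 2 to CPM at time 1 (log axis, 1 panel per member) in all pluripotent stem cell-like cells (grey), in the 2 of their clusters that have the most cells in both libraries, and in 3 classes of X and Y RNA (purple); bars are exact 95% intervals of the ratio. Id1 lies above 1 in all 6 comparisons, and Id2 lies below 1 in all but the Rhox9-led cluster, where it is 1.42.

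**Figure D3:**
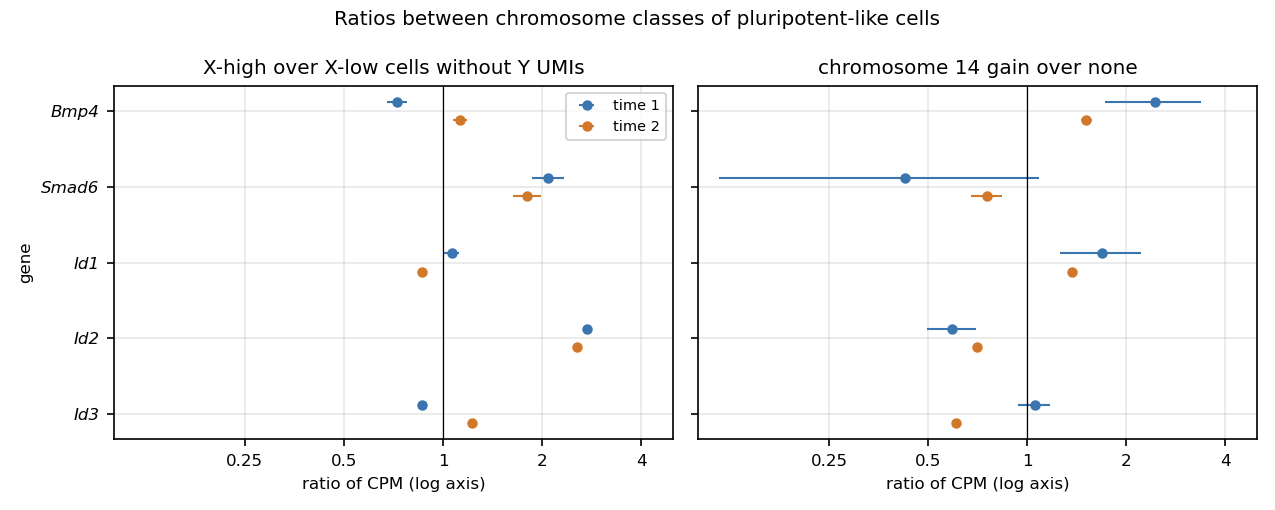
Ratio of CPM between classes of pluripotent stem cell-like cells for each member (log axis), with X-high over X-low cells at left and cells with a chromosome 14 gain over the others at right; time 1 is blue, time 2 orange and bars are exact 95% intervals. Id2 and Smad6 lie above 1 at both times at left, and Bmp4 lies above 1 at both times at right.

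Bmp4 is the only member on chromosome 14, whose RNA share was higher in part of the late cells. Cells were called gained where 407 other chromosome 14 genes had at least 1.3 times their median share at time 1. That held for 38 cells at time 1 and 4218 at time 2, of which 3378 belonged to the 1700097N02Rik-led cluster. Bmp4 was 18.7 CPM in gained and 7.66 CPM in other cells at time 1, a ratio of 2.45 (1.72 to 3.38), and 14.4 and 9.52 CPM at time 2, a ratio of 1.51 (1.46 to 1.58). The time 1 value rested on 37 UMIs, and with a threshold of 1.4 times it was 5.74 (3.74 to 8.42) from 26 UMIs in 12 cells, beside 1.85 at time 2. Within the 1700097N02Rik-led cluster the ratio was 2.24 (2.12 to 2.37), and within the Cpne5-led cluster it was 1.396 (1.29 to 1.51). Members on other chromosomes differed between these cells too: at time 2, Id3 stood at 72.8 against 120 CPM and Id1 at 43.6 against 31.8 CPM. Within the 1700097N02Rik-led cluster Id1 gave a ratio of 1.202 (1.17 to 1.23) and Id3 one of 0.673 (0.659 to 0.687). Within the Cpne5-led cluster the Id1 interval held 1 (0.976, 0.909 to 1.05), and Id3 gave 0.838 (0.814 to 0.863).

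Feeders were examined as a source of ligand RNA. Their Bmp4 level was 3.27 times (3.01 to 3.55) that of pluripotent stem cell-like cells at time 1 and 2.42 times (2.28 to 2.56) at time 2. They were few, 453 cells (1.95%) at time 1 and 701 (2.75%) at time 2. They held 2.23% and 3.52% of all UMIs of the filtered cells but 9.13% and 9.23% of the Bmp4 UMIs. The pluripotent stem cell-like cells held 54.1% of the Bmp4 UMIs at time 1 and 84.7% at time 2, beside 43.3% and 78.0% of all UMIs. Capture of feeders in the droplets need not follow their number on the plate, and RNA does not give secreted protein.

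Bmp4 in feeders came from few cells. At time 1 the 10% of feeders with most Bmp4 held 92.2% of its UMIs, with up to 92 UMIs in a cell, and at time 2 it held 71.6%, with up to 51. With each cell thinned to 10000 UMIs, 9.49% of feeders (6.95% to 12.6%) had a Bmp4 UMI at time 1 and 13.7% (11.2% to 16.5%) at time 2, against 5.52% and 8.09% of pluripotent stem cell-like cells. Without thinning the shares were 20.1% and 36.8% in feeders, at median depths of 43944 and 63275 UMIs, and 16.7% and 26.2% in pluripotent stem cell-like cells, at 50466 and 50459. Macrophage-like cells were taken as the comparison class because their Bmp4 level was low, so that choice favoured a low share. They had a Bmp4 UMI in 5.45% of 55 thinned cells (1.14% to 15.1%) at a median of 32626 UMIs. This interval holds the thinned shares of feeders and of pluripotent stem cell-like cells at both times, so it sets no baseline. Near-empty droplets, which carry free RNA, held Bmp4 at 5.73 and 10.4 CPM, close to the pluripotent stem cell-like level, so a lone Bmp4 UMI in a cell can be free RNA.

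Feeders with 3 or more Bmp4 UMIs numbered 37 at time 1 and 127 at time 2 and held 89.5% and 87.2% of the feeders' Bmp4 UMIs. Their Bmp4 level was 204 and 97.5 CPM. Id1 stood at 292 CPM (273 to 312) in them against 134 CPM (129 to 139) in feeders without a Bmp4 UMI at time 1, and at 332 against 244 CPM at time 2. Id3 stood at 591 against 397 CPM and at 579 against 457 CPM. Feeders with 1 or 2 Bmp4 UMIs lay near the Bmp4-free feeders. They held Id1 at 149 CPM (136 to 163) and 246 CPM (237 to 255), and Id3 at 369 CPM (348 to 390) and 470 CPM (458 to 483). Id1 in both libraries and Id3 in the later one were thus slightly above the Bmp4-free value, and Id3 in the earlier one was below it. Each of these intervals overlapped that of the Bmp4-free feeders. Feeders with 3 or more Bmp4 UMIs also had more UMIs than Bmp4-free ones, with medians of 73339 and 79974 against 42229 and 52207. Their levels of fibroblast genes were higher too. Col1a1, a collagen gene, stood at 1138 against 863 CPM and at 725 against 502 CPM. Fn1 stood at 2774 against 2055 CPM and at 1459 against 1023 CPM, and Grem1 at 894 against 299 CPM and at 294 against 190 CPM. The part of depth and of fibroblast RNA in the Id1 and Id3 differences was not tested. All 12 pluripotency markers were detected among feeders, with summed levels of 3097 and 3149 CPM beside 4573 and 2757 CPM for the fibroblast markers. Of these, Dppa5a held 2172 and 1903 CPM and Fn1 held 2122 and 1134 CPM. Nanog stood at 32.1 CPM in Bmp4-rich and 38.7 CPM in Bmp4-free feeders at time 1, and at 38.8 and 42.9 CPM at time 2, against 119 and 103 CPM in near-empty droplets. In the 163 feeders of time 1 without a Nanog UMI, Bmp4 was 10.3 CPM (8.29 to 12.7), and the difference to pluripotent stem cell-like cells was 0.38 on the log2(CPM + 1) scale where all feeders gave 1.59. In the 320 such feeders of time 2 it was 32.3 CPM (29.6 to 35.2), a difference of 1.53 where all feeders gave 1.198. Feeders with a Nanog UMI held 32.4 CPM of Bmp4 at time 1 and 22.3 CPM at time 2.

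The targets were high in feeders as well. Id1 was 153 CPM (148.5 to 158) in the time 1 library and 264 CPM (260 to 269) in that of time 2, which is 9.79 and 7.74 times the pluripotent stem cell-like level. Id3 was 415 and 488 CPM, or 2.77 and 4.42 times. Id2 was 83.0 and 100.1 CPM, which is 0.714 times (0.684 to 0.745) the pluripotent stem cell-like level at time 1 and 2.23 times (2.16 to 2.29) at time 2. Its level in feeders differed 1.21-fold between the libraries, and that in pluripotent stem cell-like cells 2.59-fold. Smad6 went likewise from 0.763 times (0.615 to 0.935) to 3.06 times (2.72 to 3.44).

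At time 1, Id1, Id2 and Id3 had at least 10 CPM in both classes, and Id1 and Id3 were 2-fold higher in feeders. Bmp4 met that level through the feeders alone (25.2 against 7.70 CPM), so its place past 2-fold is not counted with them. Of 8485 genes at this level in either class, 19.3% were 2-fold higher and 14% lower. At time 2 Bmp4, Id1, Id2 and Id3 met the level in both classes and were each 2-fold higher, where 19.4% of 8099 genes were higher and 7.12% lower. The member at a lower level, Smad6, was past 2-fold at time 2 only. With a pseudocount of 5 CPM the time 2 differences of Bmp4 (0.97) and Smad6 (0.68) were below the limit.

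Among the 52 other pathway genes, 27 reached 10 CPM in pluripotent stem cell-like or fibroblast-like cells of either library. Secreted inhibitors were the group that stood highest in feeders. Grem1, which binds and blocks BMP2 and BMP4, was 383 and 232 CPM in feeders against 0.503 and 0.870 CPM in pluripotent stem cell-like cells. Fst, which binds activins and some BMPs, was 63.0 and 93.5 CPM against 1.70 and 2.24 CPM. Fstl1, a secreted follistatin-related protein, was 246 and 195 CPM against 11.6 and 14.3 CPM, and Nbl1, a secreted relative of Grem1, was 54.3 and 52.3 CPM against 1.58 and 0.933 CPM. Of the 14 secreted inhibitors and modulators listed, 6 were at a testable level in each feeder comparison, of which 5 were 2-fold higher at time 1 and 6 at time 2. Grem1, Fst and Nbl1 met that level through the feeders alone at both times. So did the secreted modulator Twsg1 at time 2, at 15.6 CPM against 7.19 CPM in pluripotent stem cell-like cells. Of the genes named here, Fstl1 alone met it in both classes at time 2, so these counts had to lean to the feeders. The feeders thus held RNA of the ligand and of its secreted blockers in the same class of cells.

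Receptors and Smads were present in both classes. Bmpr1a, a type I receptor for BMP4, was 23.4 and 19.2 CPM in pluripotent stem cell-like cells and 32.9 and 29.0 CPM in feeders. Bmpr2, the main type II receptor, was 9.89 and 7.33 CPM in the former and 42.9 and 37.5 CPM in the latter. Acvr1, another type I receptor, was 2.39 and 1.64 CPM against 19.6 and 15.4 CPM. Acvrl1, a type I receptor of endothelium, was 0.472 and 0.249 CPM against 10.2 and 7.93 CPM. Acvr2b, a type II receptor shared with activin, went the other way at 28.2 and 28.0 CPM in pluripotent stem cell-like cells and 13.0 and 16.5 CPM in feeders. Smad1 stood at 10.4 and 12.8 CPM against 25.3 and 23.6 CPM, Smad4 at 26.4 and 30.5 CPM against 49.3 and 42.9 CPM, and Smad5 at 8.13 and 7.63 CPM against 14.5 and 14.6 CPM.

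Gdf3, a ligand of the family made by pluripotent cells, was the 1 listed ligand other than Bmp4 at this level, at 85.6 and 122 CPM in pluripotent stem cell-like cells and 26.4 and 55.4 CPM in feeders. Among targets, Msx2 was 1.93 and 1.03 CPM against 10.9 and 11.4 CPM in feeders and Id4 was 5.82 and 3.58 CPM against 10.0 and 8.97 CPM. Of the E proteins that Id proteins bind, Tcf4 was 20.7 and 27.5 CPM against 102 and 118 CPM in feeders, Tcf12 was 18.4 and 13.0 CPM against 43.5 and 35.3 CPM, and Tcf3 was 59.9 and 51.0 CPM against 48.2 and 44.5 CPM. Over the list, 14 of 27 testable genes were 2-fold higher and 2 lower in feeders at time 1, with a median difference of 1.03 beside -0.12 over all genes. At time 2 it was 16 higher and 1 lower of 25, with a median of 1.08 beside -0.11. Over all genes at this level, 19.3% were higher and 14% lower at time 1, and 19.4% and 7.12% at time 2.

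**Figure D4:**
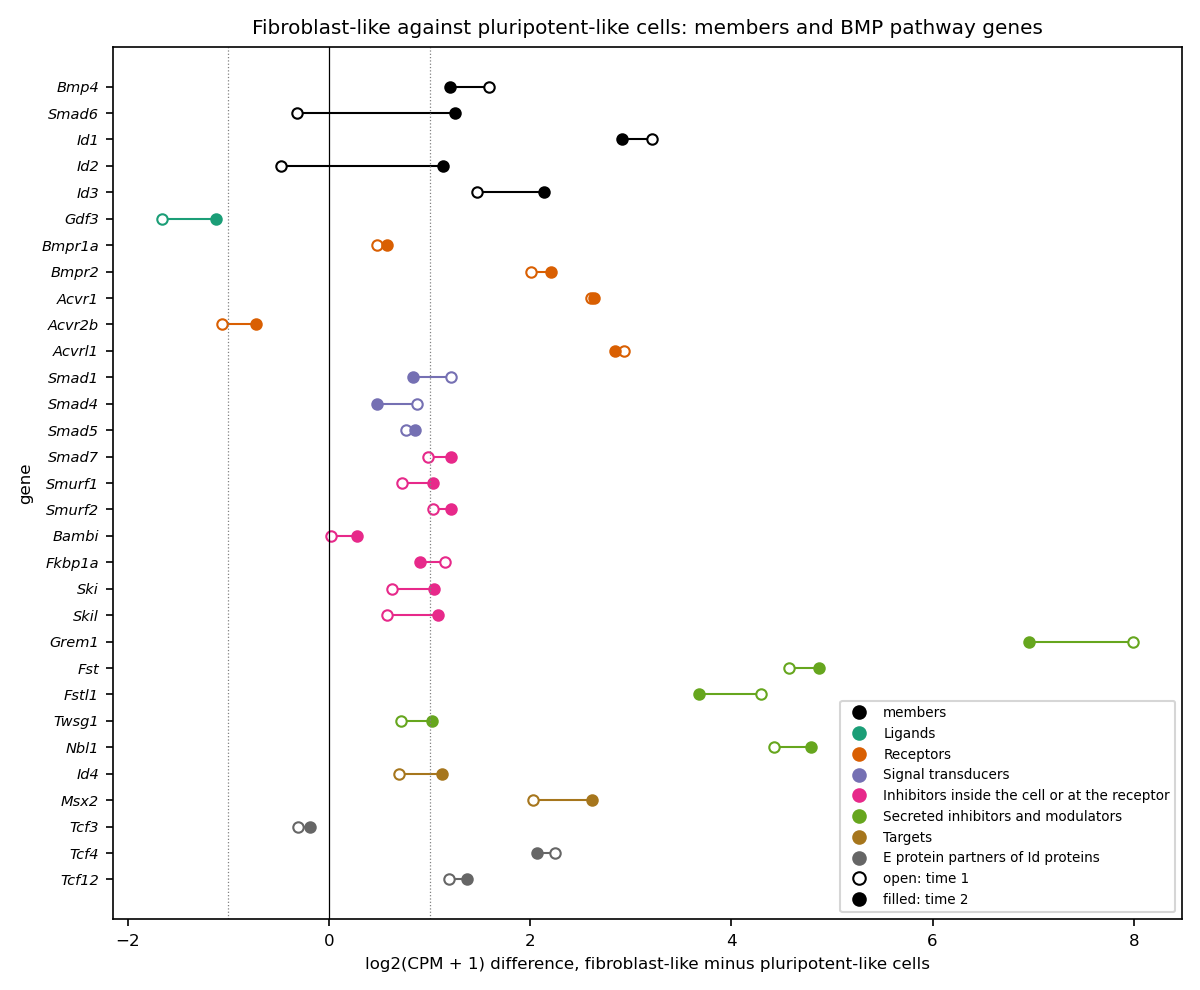
Difference in log2(CPM + 1) between fibroblast-like and pluripotent stem cell-like cells for the members (black) and 26 other pathway genes at 10 CPM or more, coloured by role; open points are time 1, filled points time 2, and dotted lines mark 2-fold. Id2 and Smad6 lie on opposite sides of 0 at the 2 times, and the secreted inhibitors Grem1, Fst, Fstl1 and Nbl1 lie farthest to the right.

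Between time points in pluripotent stem cell-like cells, 1 of the other pathway genes was past 2-fold. Of 17 testable genes none was 2-fold higher and 1 was 2-fold lower, Skil, a corepressor of Smad signalling, at 64.8 and 31.3 CPM (log2 difference -1.03). Beside this, 1.01% of all 7360 genes at this level were 2-fold higher and 2.70% lower, so 1 gene of 17 says little about the list. The list's median was -0.28 beside -0.03 over all genes. The 7 inhibitors inside the cell or at the receptor had a median of -0.44. In this group Smad7, the other inhibitory Smad, went from 69.8 to 42.9 CPM, Ski from 36.6 to 26.7 CPM, Smurf1 from 10.9 to 7.13 CPM, Smurf2 from 14.7 to 11.1 CPM and Bambi, a decoy receptor, from 14.7 to 11.8 CPM. None of these was past 2-fold, and Smurf1 met the level at time 1 alone. Fkbp1a, which holds type I receptors inactive, went from 258 to 276 CPM, and the secreted modulator Twsg1 from 11.9 to 7.19 CPM. Twsg1 also met the level at time 1 alone.

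Within the pluripotent stem cell-like class the members varied together only weakly from cell to cell. With cells thinned to 10000 UMIs, the Pearson correlation of log UMIs plus 1 for Id1 and Id3 was 0.06 over 9170 cells at time 1 and 0.06 over 20033 cells at time 2. Id1 and Id2 gave 0.01 and 0.12, Bmp4 and Id1 gave 0.01 and 0.03, and Bmp4 and Smad6 gave 0.01 and 0.02. Counts were sparse, since a thinned cell held on average 0.1502 and 0.347 UMIs of Id1 and 0.0807 and 0.109 of Bmp4, and correlations this weak are no finding. By cluster of over 500 cells, the correlation of Id1 and Id3 ran from 0.05 to 0.18 in the pluripotent stem cell-like clusters and was 0.11 in the unnamed Rpgrip1-led cluster of time 1. It was higher in 3 other groups, at 0.37 in the primed epiblast-like cells of time 1, 0.51 in the Apela-led cells of time 2 and 0.63 in the feeders of time 2. These groups also held more Id1, at 101, 261 and 264 CPM, and the part of that in the correlation was not tested. Bmp4 and Id1 stood at 0.14 in those feeders, and at 0.02 in the primed epiblast-like and 0.04 in the Apela-led cells. In the pluripotent stem cell-like clusters, Id1 and Id2 ran from -0.005 in the Rhox9-led cluster of time 1 to 0.21 in the 1700097N02Rik-led cluster. With all UMIs that pair gave 0.19 over the class at time 2.

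A small tail of pluripotent stem cell-like cells was rich in Id1. Of thinned cells, 89.0% at time 1 and 78.9% at time 2 had no Id1 UMI, while 27 cells (0.294%) and 183 cells (0.913%) had 5 or more. Without thinning, 35.6% and 55.1% of cells had an Id1 UMI. Near-empty droplets held Id1 at 54.5 and 90.2 CPM, above the level of this class, so a lone Id1 UMI in a cell can be free RNA. From cells without Id1 to the Id1-rich tail, Id3 went from 150 to 330 CPM (265 to 406) at time 1 and from 111 to 248 CPM (226 to 272) at time 2. Id2 went from 113 to 230 CPM and from 42.2 to 180 CPM. Bmp4 had no single direction over the groups. At time 2 it stood at 10.1 CPM (9.64 to 10.6) in cells without Id1, 13.4 CPM (12.1 to 14.8) with 1 Id1 UMI, 15.4 CPM (13.2 to 17.9) with 2 to 4 and 6.56 CPM (3.39 to 11.5) in the tail. At time 1 it stood at 7.84 CPM (7.24 to 8.47), 11.7 CPM (9.44 to 14.2) and 2.56 CPM (0.699 to 6.57) in these groups and was not detected in the tail (an upper limit of 13.7 CPM). State markers had no common direction. Dnmt3b, a methyltransferase of primed cells, went from 90.9 to 152 CPM and from 70.4 to 141 CPM, and Nanog from 124 to 91.3 CPM (77.9 to 106) at time 2. At time 1 the Nanog interval in the tail, 87.2 to 176 CPM, held the value of cells without Id1, 144 CPM. The primed gene Otx2 went from 31.0 to 51.9 CPM (28.3 to 87.0) at time 1 and from 19.2 to 17.5 CPM (11.96 to 24.7) at time 2. Fgf5, another primed gene, was at 3.64 and 0.994 CPM in cells without Id1 and had no UMI and 1 UMI in the tails. For the naive genes the interval in the tail held the value of cells without Id1 at both times, Tbx3 at 25.9 against 27.7 CPM and 48.1 against 47.7 CPM, and Zfp42 at 55.6 against 69.7 CPM and 121 against 133 CPM.

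**Figure D5:**
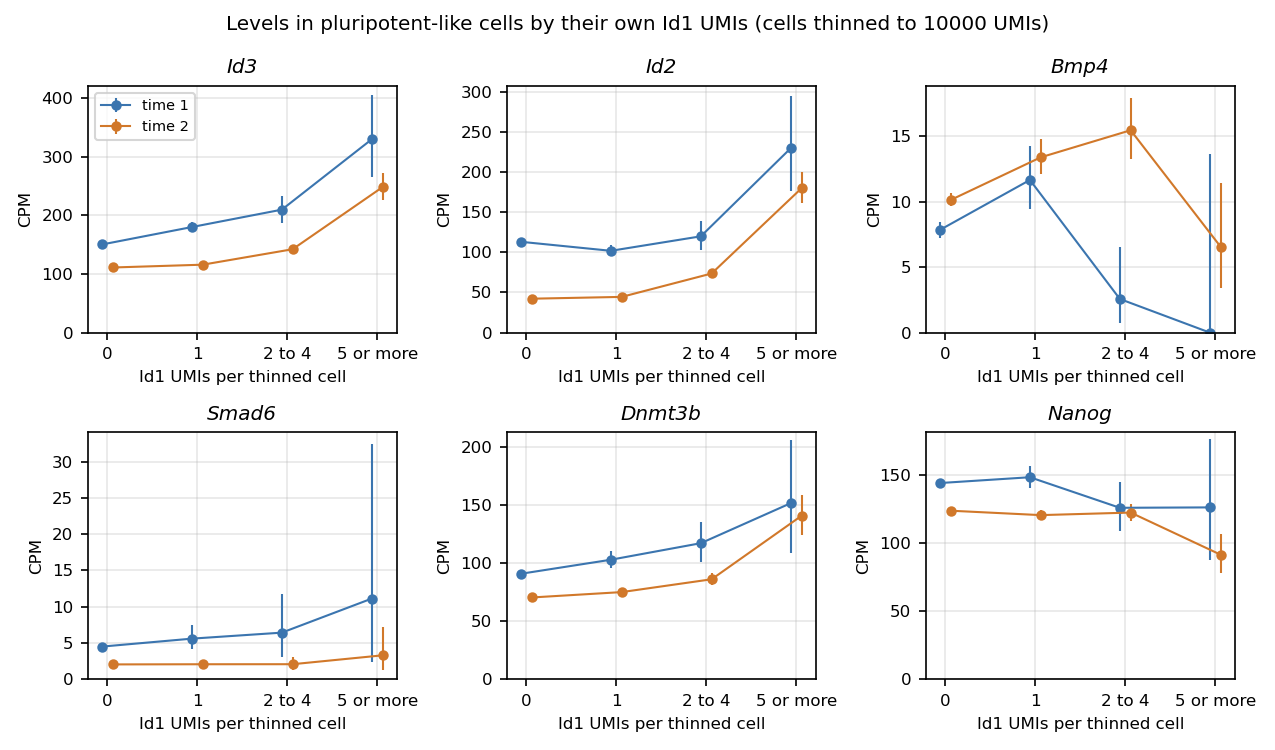
Levels (CPM) of 4 members and 2 state markers in pluripotent stem cell-like cells grouped by their own Id1 UMIs after thinning to 10000 UMIs, with time 1 in blue and time 2 in orange; bars are exact Poisson 95% intervals. Id3 and Id2 are highest in cells with 5 or more Id1 UMIs, a group of 27 cells at time 1 and 183 at time 2. Bmp4 is not highest there at time 2. At time 1 that group had no Bmp4 UMI, and its upper limit of 13.7 CPM lies above the values of the other groups.

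Cells with a Bmp4 UMI were 5.52% and 8.09% of the thinned pluripotent stem cell-like cells. Id1 stood at 14.4 CPM (11.3 to 18.1) in them against 15.1 CPM (14.2 to 15.9) at time 1, and at 38.0 CPM (35.1 to 41.1) against 34.4 CPM (33.6 to 35.3) at time 2. Id3 stood at 187 CPM (176 to 200) against 153 CPM (150 to 155) and at 141 CPM (135 to 147) against 112 CPM (111 to 114). Nanog was higher in them by like amounts, at 171 against 142 CPM and at 154 against 120 CPM, and so was the naive gene Tbx3, at 36.0 against 27.6 CPM and 69.2 against 47.1 CPM. The naive gene Zfp42 stood at 79.8 against 69.6 CPM at time 1, and at time 2 its intervals overlapped (137 against 133 CPM). The primed gene Dnmt3b was higher too at time 1, at 112 against 91.5 CPM, and at time 2 its value of 74.7 CPM (70.6 to 79.0) overlapped the 72.5 CPM of the other cells. Intervals overlapped at both times for the primed genes Otx2 and Fgf5.

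For each member, the 5 genes whose levels over the 23 sums were most like its own were listed among 7882 genes with at least 20 CPM in a sum. For Bmp4 these were Arl3, Fn1, Sept9, Vcan and Zeb1, with Pearson correlations of 0.73 to 0.76. Fn1, fibronectin, was also a fibroblast marker here. For Smad6 they were Gata2, Hey1, Hapln1, Myct1 and Notch1 (0.76 to 0.82), of which Gata2 and Hey1 are also on the pathway list as targets. For Id1 they were Dbn1, Sox4, Abracl, Mpdz and Phc2 (0.90). For Id2 they included Csf2ra, Apobec1, Pstpip1 and Crem (0.78 to 0.84), and for Id3 Mthfd2l, Ier5l, Sem1, Ctxn1 and Laptm4b (0.82 to 0.85). The sums come from 2 libraries, and a single cluster, such as the macrophage-like one for Id2 or the endothelial-like one for Smad6, can set such an order.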

How the data were processed

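Single-cell RNA libraries (10x Chromium, version 3.1 chemistry) of 2 time points were used, 1 library each. The authors deposited raw UMI counts per gene and barcode. Cell Ranger 6.1.2, bcl2fastq 2.20.0.422 and the build mm10 (GRCm38) are named in the submitters' processing notes. The matrices hold 145288 and 52242 barcodes, with 1735810403 and 1843588321 UMIs. A barcode counted as a cell with 18315 UMIs (time 1) or 18646 (time 2) or more, which is 0.1 of the 99th percentile over the 20000 deepest barcodes. It also needed 1000 genes and a mitochondrial share of no more than 10%. Scrublet's automatic threshold marked 0 cells at time 1, so the 10% of cells with the highest doublet scores were removed in both libraries (2540 and 2727 cells), a choice made after that result was seen.

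Clusters were made with scanpy 1.11.5 (2000 variable genes, 30 components, 15 neighbours, Leiden resolution 0.5) and named from marker lists, with naming limits set after the clusters were seen. Clusters that did not meet all limits for a name stayed unnamed. The Apela-led cluster had 3 neural and 2 primed markers 2-fold higher than in the other clusters. The Rpgrip1-led cluster had a mean pluripotency marker level of 7.05 on the log2(CPM + 1) scale, just under the limit of 7.2. The members and lists were chosen with earlier results of these data known. UMI counts were summed per class and library and given as CPM, and shares of cells were taken after thinning to 10000 UMIs. Cells are not replicates, so no test between groups was made. The limit of 2-fold was tested on simulated data. TMM factors came from edgeR 4.0.16. Gene positions came from GENCODE M21, which matched 32158 of 32285 genes. A pathway gene and a gene like Id2 are counted but not reported here. Genes named were the members, the 5 genes most like each, and genes of the 52-gene pathway list with at least 10 CPM in pluripotent stem cell-like or fibroblast-like cells. Alternatives covered scaling, pseudocount, cell filter, doublets, resolution, population and thresholds.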

Additional observations from a re-analysis of the deposited data

Results flagged for a closer look

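For 5 contrasts the direction in the time 1 library was opposite to that in the time 2 library, on the log2(CPM + 1) scale. Each library is 1 sample, and the difference between the libraries was not tested. In X-high against X-low pluripotent stem cell-like cells, Bmp4 gave -0.41 at time 1 and 0.16 at time 2. With X-high called at 1.4 times it gave -0.67 and -0.013, so its opposite direction was lost. Within the Rhox9-led cluster Bmp4 gave -0.19 and 1.1996, and within the Calcoco2-led cluster -1.10 and -1.62. Id1 gave 0.083 and -0.20 in the same contrast, and Id3 gave -0.21 and 0.29. Within clusters neither gene had opposite directions: Id1 gave -0.13 and -0.58 in the Rhox9-led and -0.14 and -0.30 in the Calcoco2-led cluster, and Id3 gave -0.14 and -0.20, and -0.36 and -0.80. In fibroblast-like against pluripotent stem cell-like cells, Smad6 gave -0.32 at time 1 and 1.25 at time 2, and Id2 gave -0.48 and 1.14. With doublets kept, the time 1 value of Id2 was -0.025, close to no difference.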

How the results depend on the processing

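No paired analysis was possible because each time point has 1 library. The count of members past 2-fold between time points, 2 as reported, was 0 over all filtered cells, with primed epiblast-like cells added, and in the Calcoco2-led cluster, X-high cells or Y-positive cells alone. It was 1 at Leiden resolution 1.0, with doublets kept, with at least 5000 UMIs per cell (in these 3 Id1 was lost, at 0.97, 0.96 and 0.87 against 1.08), with the Rpgrip1-led cluster added, and in the Rhox9-led cluster or X-low cells alone. The populations restricted to 1 cluster or X class, and the Rpgrip1-led addition, were chosen after seeing the data. The Id1 difference was -0.42 with primed epiblast-like cells added, and that of Id2 was 0.51 in the Rhox9-led cluster alone. The feeder difference of Bmp4 at time 1 (1.59) was 1.25 with a pseudocount of 5 CPM, 1.957 with feeders taken by marker UMIs and 0.38 in feeders without a Nanog UMI, a choice also made after seeing the data. At time 2 (1.198) these gave 0.97, 1.51 and 1.53, and at least 5000 UMIs per cell gave 1.302. The log2 range of cluster levels at Leiden resolution 1.0 was 5.54 for Bmp4, 5.32 for Id1, 4.17 for Id2 and 3.32 for Id3. For Smad6 it was 5.498 in place of 7.165. With pathway genes among the variable genes it was 4.86 for Id1. The correlation of Id1 and Id3 over cells was 0.12 with all UMIs and 0.090 with doublets kept at time 1. At time 2 it was 0.034 by Spearman, 0.10 with all UMIs and 0.087 centred within clusters. With a chromosome 14 threshold of 1.4 the Bmp4 difference was 2.38 and 0.82. With X-high called at 1.4 times, the Bmp4 difference at time 2 was -0.013 in place of 0.16, and with doublets kept the Id2 feeder difference at time 1 was -0.025 in place of -0.48. The cause of these shifts was not tested. Depth limits the precision of low members: Smad6 at both times and Bmp4 at time 1 stood below 10 CPM in pluripotent stem cell-like cells.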
